A study of Rattus norvegicus with 5 samples.

Results

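The subject is a set of 10 genes of the NRF2 antioxidant pathway, Nqo1, Hmox1, Gclc, Gclm, Txnrd1, Srxn1, Gsr, Nfe2l2, Keap1 and Gstp1, chosen by name among the 13337 genes that the platform annotation gives. They are read by 12 probes, of which Gstp1 has 3 and each other gene has 1. Of these genes 9 were detected on all 5 arrays. Srxn1 was detected on none.

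Illumina bead arrays read the expression of primary hepatic stellate cells, which came from male Wistar rats aged 10 weeks. Stellate cells store vitamin A in the liver and become matrix-producing myofibroblasts in injury and in culture. At day 3, 2 arrays held cells given calcitriol (1,25(OH)2D3, the hormonal form of vitamin D) at 100 nM for 24 h, and 2 arrays held cells given vehicle. One more array, without a replicate, is labelled as cells freshly isolated and not treated. The labels do not say whether replicates were separate cultures or animals, so p-values here cover the spread between arrays alone, and that spread may be technical.

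NRF2, the product of Nfe2l2, is a transcription factor that is held at a low level by KEAP1. KEAP1 is an adaptor that hands NRF2 to a ubiquitin ligase, and oxidants or electrophiles modify KEAP1 so that NRF2 escapes, enters the nucleus and pairs with a small MAF protein. The pair binds antioxidant response elements and switches on genes for glutathione synthesis, thioredoxin recycling, quinone reduction and heme breakdown. In liver this programme protects cells from drugs, bile acids and oxidative injury.

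The labels were checked against Cyp24a1. This gene, whose enzyme breaks calcitriol down and which the vitamin D receptor switches on directly, had deposited signals of 509.9 and 590.7 intensity units on the calcitriol arrays, 105.2 and 84.4 on the vehicle arrays, and 381.9 on the array labelled freshly isolated. It was detected on both calcitriol arrays, on neither vehicle array, and also on the array labelled freshly isolated, although the label names no treatment there. Over the 9737 probes kept, the log2 values of that array had a Pearson correlation across probes of 0.990 and 0.989 with the calcitriol arrays and of 0.980 and 0.981 with the vehicle arrays. Its label is therefore given as a label throughout. Vehicle array 2 was the dimmest, with a mean signal of 608.2 against 738.5 to 854.8 on the other 4. Of 15 stellate cell markers with a named probe 13 were detected on at least 1 array, collagens, desmin, vimentin and decorin among them, while Gfap and Ngfr were not. The RNA also carried macrophage transcripts, with 19 of 19 macrophage markers detected, whereas 20 of 24 hepatocyte markers, albumin included, were on no array. In such bulk RNA fewer cells of a type and less RNA per cell cannot be told apart.

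The core of the antioxidant response element was looked for in the promoters, since it is the sequence through which NRF2 reaches these genes. The letters TGACNNNGC were searched on both strands from 250 bases before to 50 bases after each start, in RefSeq promoter sequences of build GRCr8. Promoters were found for 9 starts of 8 genes, with 2 starts for Txnrd1 and 1 for each other gene. A match lay in 4 of the 9 windows (44.4%), of 4 of the 8 genes. The share was 12.1% of all 33469 windows and 14.9% of the 6197 windows of genes with a kept probe. It was 21.2% of the 113 windows of genes in the wider pathway lists, which are read below. The median GC content of the 9 windows was 59.7%, against 51.7%, 60.7% and 58.7% in those sets. The matches are shown 5′ to 3′ on the strand of the gene, with 15 bases on each side where the window allows, and the capitals mark the 9 matching letters.
Gclm: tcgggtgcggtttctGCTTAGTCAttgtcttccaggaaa
Txnrd1: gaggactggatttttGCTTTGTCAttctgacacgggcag
Gstp1: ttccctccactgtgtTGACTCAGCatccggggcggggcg
Nfe2l2: gctccgactagccatTGACGCCGCctc
The Gclm stretch lies at chr2:213031948-213031986 (plus strand) and its match begins 172 bases before the start. That of Txnrd1 lies at chr7:22755959-22755997 (minus strand), 78 bases before the second of its starts. Both read as the motif on the opposite strand, as TGACTAAGC in Gclm and TGACAAAGC in Txnrd1. The Gstp1 stretch lies at chr1:210769743-210769781 (minus strand), 61 bases before the start, and the Nfe2l2 stretch at chr3:81028950-81028976 (minus strand), where the first matching base is 39 bases after the start.

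The Gstp1 match overlaps the letters TGANTCA, the motif of AP-1 factors, which reads the same on both strands and was added after the promoters were read. TGANTCA was also in the Srxn1 promoter, at 62 and 5 bases before the start, shown with its letters in capitals.
Srxn1 site 1: tctgagggccTGAGTCAccacgctgtg
Srxn1 site 2: aaactcacccTGAGTCAgcgacccgac
These lie at chr3:161064740-161064766 and chr3:161064797-161064823 (plus strand). TGANTCA was in 2 of the 9 windows, against 7.33% of all windows and 5.03% of those of genes with a kept probe. Among the windows of wider pathway genes 7.96% held it. A match is a run of letters and not evidence of binding. The lack of a TGACNNNGC match in Nqo1, Gclc, Srxn1 and Keap1 speaks only of these windows.

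The main comparison asked what calcitriol changed at day 3, with 2 arrays per group. No NRF2 gene passed the test. In limma, with Benjamini-Hochberg adjustment over the 9737 probes and a threshold of 0.05, 0 of 9 detected genes were called, where 1.83% of all probes were called. At an unadjusted p under 0.05 it was 1 of 9, Keap1, against 15.8% of all probes. The 9 genes had a median log2 change of -0.07, against 0.00444 over all probes. Of their values 3 were above 0 and 6 below, where 4938 of the 9737 probes were above 0 and 4797 below. Both calcitriol arrays lay beyond both vehicle arrays for 3 of 9 genes (Keap1 above, Hmox1 and Gsr below), a share to be read against 47.7% of all probes (23.3% above and 24.4% below). Some markers of other cell types moved with the groups. The summed background-corrected level of the 4 hepatocyte markers detected, of 24 with a probe, was 5812 to 5995 units with calcitriol and 10326 to 10330 with vehicle. Arg1, the one called (lower), carried that gap, and without it the sums overlapped, at 1852 to 2050 with calcitriol and 1976 to 2185 with vehicle. For 10 of 12 sinusoidal endothelial markers the sum was 5893 to 6151 with calcitriol and 7728 to 7930 with vehicle, and without Fcgr2b it was 2316 to 2440 with calcitriol and 2596 to 2752 with vehicle. Of those 10 markers 4 had a higher value with calcitriol and 6 a lower one, with a median of -0.09 and 0 called. All 4 lymphocyte markers detected, of 11, had a higher value with calcitriol and 0 were called, with sums of 510.0 to 662.9 with calcitriol and 347.5 to 357.9 with vehicle. Their part in the values of the NRF2 genes was not tested.

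Of the regulators, Keap1 had the largest change in value among the 9 genes and Nfe2l2 one of the smaller. Keap1, the sensor that marks NRF2 for degradation, had deposited signals of 1133 and 1244 units with calcitriol, 985.5 and 664.9 with vehicle, and 973.8 on the array labelled freshly isolated. Both calcitriol arrays were above the other 3 arrays before any normalization. After background correction and quantile normalization the log2 values were 10.11 and 10.06 with calcitriol, 9.78 and 9.57 with vehicle, and 9.60 on the array labelled freshly isolated. Both calcitriol arrays were still above the other 3, and they differed from each other by 0.047, the vehicle arrays by 0.21. The log2 change with calcitriol was 0.41 ± 0.14 (SE, n = 2 per group), which is 1.33-fold with a 95% interval of 1.04- to 1.69-fold. The interval, which is not adjusted for the number of probes, leaves out 1, but limma's adjusted p = 0.244 did not pass.

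Nfe2l2, the gene of NRF2 itself, had log2 values of 11.49 and 11.42 with calcitriol and of 11.55 and 11.21 with vehicle, with 11.36 on the array labelled freshly isolated. The vehicle arrays enclosed both calcitriol arrays. The log2 change was 0.08 ± 0.16, with a 95% interval of 0.797- to 1.39-fold (adjusted p = 0.859 in limma).

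**Figure D1:**
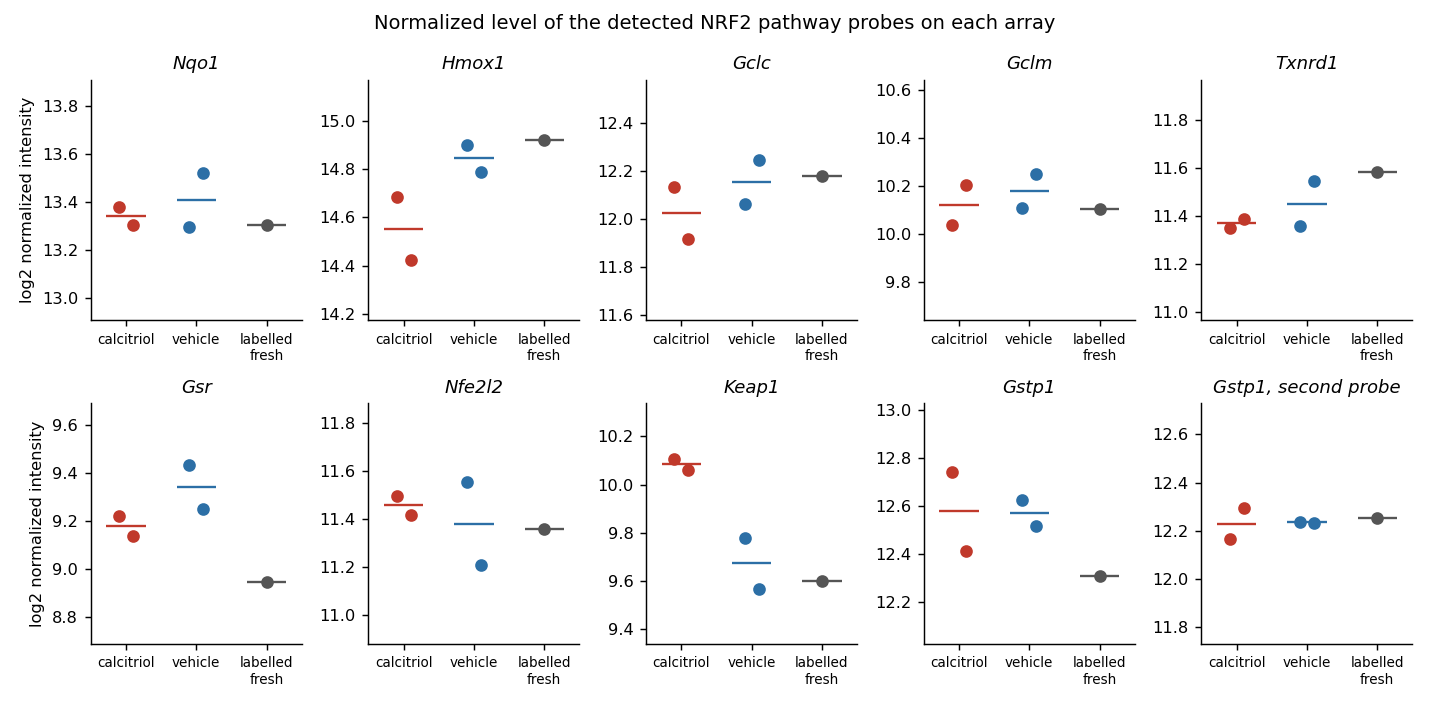
Normalized log2 intensity (y axis, each panel spanning 1 log2 unit) of the 10 detected probes on each array, by group on the x axis, where points are arrays and bars group means. The calcitriol arrays lie above all others for Keap1 (10.11 and 10.06) and below all others for Hmox1 (14.68 and 14.42), and calcitriol and vehicle arrays overlap in every other panel but Gsr.

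Among the glutathione genes the groups overlapped except for Gsr. Gclc, the catalytic subunit of the enzyme that sets the rate of glutathione synthesis, had log2 values of 12.13 and 11.91 with calcitriol, 12.06 and 12.24 with vehicle and 12.18 on the array labelled freshly isolated. Its partner Gclm, the modifier subunit, had 10.04 and 10.20 with calcitriol, 10.11 and 10.25 with vehicle and 10.10 on that array. For both subunits each calcitriol value lay within the vehicle range or within 0.15 of it. The log2 changes were -0.13 ± 0.15 for Gclc (95% interval 0.706- to 1.19-fold) and -0.06 ± 0.14 for Gclm (0.755- to 1.22-fold).

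Gsr encodes glutathione reductase, which returns oxidized glutathione to its reduced form with NADPH. Its log2 values were 9.22 and 9.14 with calcitriol, 9.43 and 9.25 with vehicle, and 8.94 on the array labelled freshly isolated. All 4 day 3 arrays were above the array labelled freshly isolated, as they were for the first Gstp1 probe and for 19.7% of all probes, and the closest calcitriol and vehicle arrays were nearer to each other than the vehicle arrays were. The log2 change with calcitriol was -0.16 ± 0.14 (adjusted p = 0.615 in limma).

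Gstp1, a glutathione transferase that conjugates electrophiles and marks altered foci in rat liver, was read by 3 probes. The first gave log2 values of 12.74 and 12.41 with calcitriol, 12.62 and 12.52 with vehicle and 12.31 on the array labelled freshly isolated. The second gave 12.17 and 12.29 with calcitriol, 12.23 and 12.23 with vehicle and 12.25 on that array. The third probe was detected on no array, with deposited signals of 81.7 to 99.4 units. Both detected probes had changes close to 0 with calcitriol, of 0.0071 ± 0.16 and -0.0047 ± 0.13.

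Of the thioredoxin genes, Txnrd1 was measured and Srxn1 was not. Txnrd1, the cytosolic thioredoxin reductase, had log2 values of 11.35 and 11.39 with calcitriol, 11.36 and 11.55 with vehicle, and 11.58 on the array labelled freshly isolated. Calcitriol array 2 lay between the vehicle arrays and calcitriol array 1 just under them. All 4 day 3 arrays were below the array labelled freshly isolated, as they were for Hmox1 and for 19.5% of all probes. The log2 change was -0.08 ± 0.14 (95% interval 0.747- to 1.20-fold). Srxn1, sulfiredoxin, which repairs overoxidized peroxiredoxins, had deposited signals of 93.2 and 95.9 units with calcitriol, 103.9 and 93.4 with vehicle and 98.4 on the array labelled freshly isolated. Its detection p-values ran from 0.257 to 0.385, so the probe was not above background on any array and has no fold.

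Nqo1 encodes the quinone reductase that is the classic readout of NRF2. Its deposited signals were 10605 and 11477 units with calcitriol, 10077 and 9077 with vehicle and 11656 on the array labelled freshly isolated, with standard errors over beads of 1.81% to 2.22% of the signal. After normalization the log2 values were 13.38 and 13.30 with calcitriol, 13.30 and 13.52 with vehicle and 13.30 on that array. The vehicle arrays enclosed both calcitriol arrays once normalized, although the deposited signals were higher on both calcitriol arrays than on both vehicle arrays. The log2 change was -0.07 ± 0.14, with a 95% interval of 0.746- to 1.22-fold (adjusted p = 0.858 in limma).

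Hmox1, heme oxygenase 1, breaks heme down to biliverdin, iron and carbon monoxide, and in liver is also made by macrophages. Its deposited signals were 26442 and 23559 units with calcitriol, 31456 and 24486 with vehicle and 33146 on the array labelled freshly isolated. Before normalization the calcitriol and vehicle arrays overlapped. The normalized log2 values were 14.68 and 14.42 with calcitriol, 14.90 and 14.79 with vehicle and 14.92 on the array labelled freshly isolated, so that both calcitriol arrays were the lowest. The log2 change with calcitriol was -0.29 ± 0.15, 1.23-fold lower in value, with a 95% interval that runs from 1.59-fold lower to 1.06-fold higher (adjusted p = 0.411 in limma). The summed background-corrected level of the 19 macrophage markers was 125544 and 130882 units on the calcitriol arrays, 109487 and 118043 on the vehicle arrays and 133624 on the array labelled freshly isolated. Coro1a, a gene of leukocytes at large, made up most of the gap, and without it the sums overlapped, at 108750 and 111438 with calcitriol and 102830 and 110460 with vehicle. Of the 19 markers 8 had a higher value with calcitriol and 11 a lower one, with a median of -0.02. Coro1a was called higher and Ptprc lower. The part of macrophage RNA in the Hmox1 values was not tested.

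**Figure D2:**
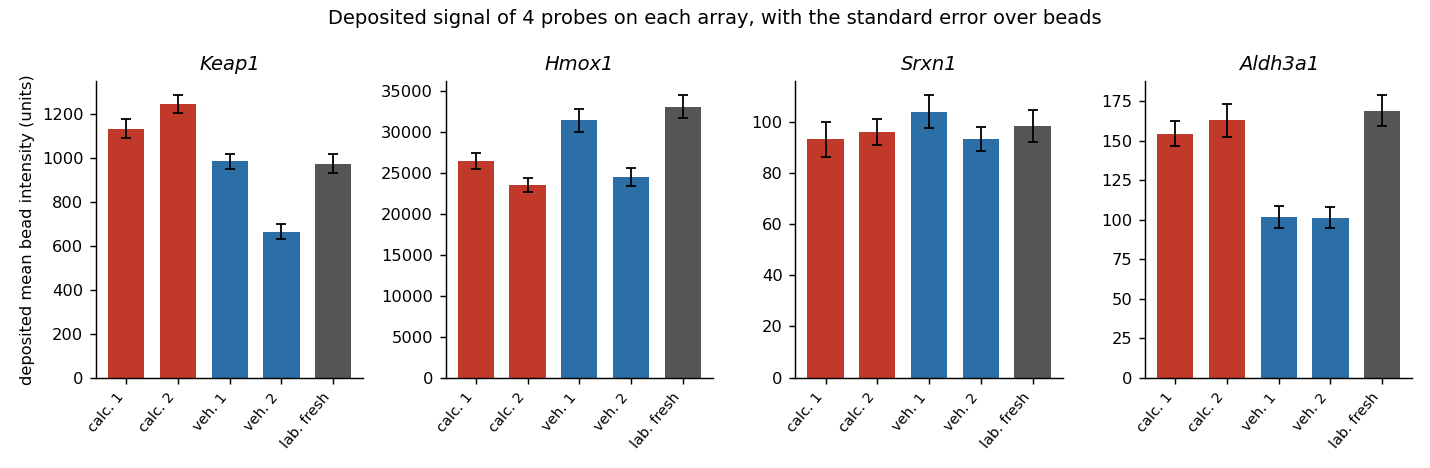
Deposited mean bead intensity (y axis, linear from 0) of Keap1, Hmox1, Srxn1 and Aldh3a1 on each of the 5 arrays (x axis), with the standard error over beads as error bars. Keap1 is highest on the calcitriol arrays (1133 and 1244 units), Hmox1 overlaps between groups before normalization, Srxn1 stays at background (93.2 to 103.9 units), and Aldh3a1 is at 101.5 and 101.2 units on the vehicle arrays.

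For the 10 detected probes the standard errors of the change ran from 0.13 to 0.16, and the 95% intervals reached at most from 1.59-fold lower (Hmox1) to 1.69-fold higher (Keap1). These limits, from 2 arrays per group and not adjusted for the number of probes, bound the changes. They are not the smallest change that could be called. When the comparison was simulated over 9737 probes, the test called 0% of the 1.5-fold and of the 2-fold changes put in. Of the 4-fold ones it called 95%. On the measured arrays, however, Arg1 passed at 2.08-fold lower and Ptprc at 2.35-fold lower (adjusted p = 0.0258 and 0.0380 in limma). The simulated rates therefore do not carry over to these genes, and the intervals are what bounds their changes.

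**Figure D3:**
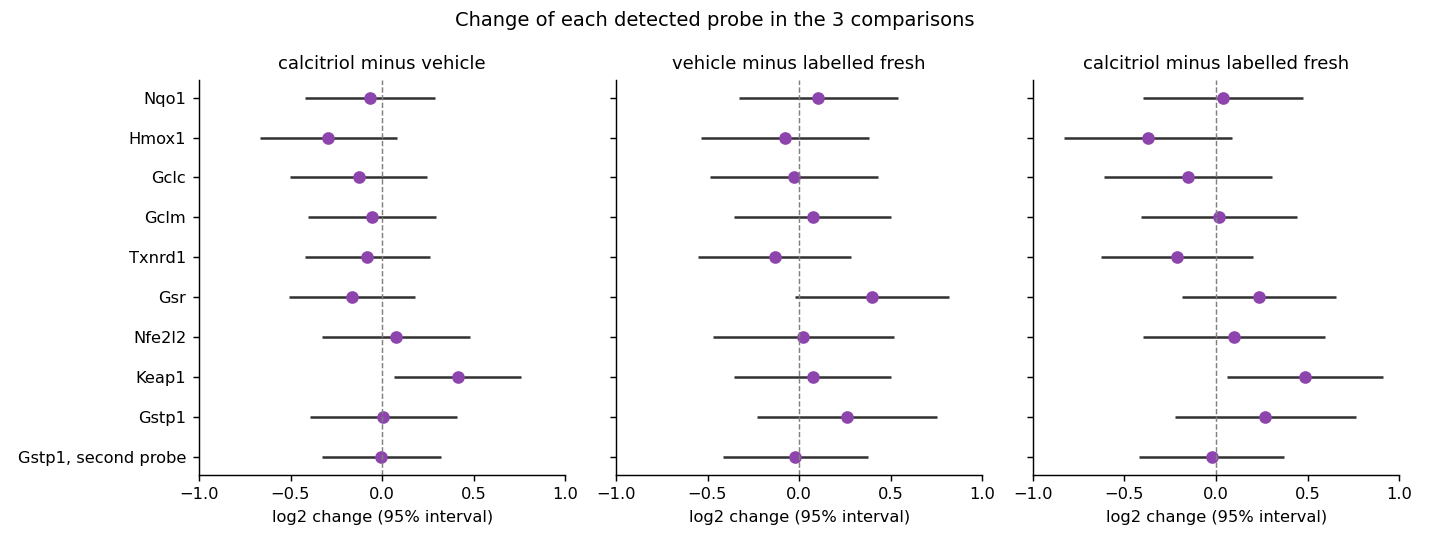
Log2 change (x axis) of the 10 detected probes (rows) with its 95% interval in the 3 comparisons, from limma. With calcitriol the intervals hold 0 for 9 of 10 probes, all but Keap1, and the points lie between -0.29 and 0.41.

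Vehicle cells at day 3 were next set against the array labelled freshly isolated, a comparison of cultured with uncultured cells where the label is right. Here 0 of 9 genes passed in limma, with 1.53% of all probes called (0.483% higher and 1.05% lower). At an unadjusted p under 0.05 it was 0 of 9, against 13.9% of all probes. The largest value was that of Gsr, with log2 values of 9.43 and 9.25 with vehicle against 8.94 on the array labelled freshly isolated, a log2 change of 0.40 ± 0.17 (2 arrays against 1, adjusted p = 0.384). Gstp1 differed by 0.26 ± 0.20 by its first probe and by -0.02 ± 0.16 by its second. The other 7 genes lay between -0.13 for Txnrd1 and 0.11 for Nqo1, and Keap1 (0.07) and Hmox1 (-0.08) were among them.

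Calcitriol was then set against the array labelled freshly isolated, a comparison that shares its arrays with those above. This comparison gave 0 of 9 genes past the threshold, with 0% of all probes called. At an unadjusted p under 0.05 it was 1 of 9, Keap1, against 6.67% of all probes. Keap1 had the largest higher value, with a log2 change of 0.48 ± 0.17 (adjusted p = 0.695 in limma). Hmox1 had the largest lower value, -0.37 ± 0.18 (adjusted p = 0.84). Keap1 (9.60) and Hmox1 (14.92) on that array were near the vehicle arrays, and Gsr (8.94) was nearer to the calcitriol arrays. Cyp24a1 was detected there as on the calcitriol arrays. Which group the NRF2 genes of that array resemble was not tested.

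The pattern of Keap1, which had the widest range of the 9 genes over the 5 arrays (1.45-fold), was nearest to that of Tceal9, Ereg and Uqcrfs1, with Pearson correlations of 0.994, 0.993 and 0.992 over 5 arrays. Of 7050 genes 138 had a correlation over 0.9 with Keap1, and with 5 arrays from 3 groups this describes a shape only.

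The wider pathway was read in 6 lists, whose genes had a named probe in 103 cases and a kept one in 85. With calcitriol 1 of the 85 rose and 0 fell, against 1.17% and 0.657% of all probes called in these directions. An unadjusted p under 0.05 was found for 15 of the 85, near the share of 15.8% over all probes. The median log2 change was 0.06. The gene that rose was Aldh3a1, an aldehyde dehydrogenase induced by xenobiotics. Its deposited signals were 154.4 and 163.0 units with calcitriol, 101.5 and 101.2 with vehicle and 169.0 on the array labelled freshly isolated. Neither vehicle array detected it, whereas the calcitriol arrays and the array labelled freshly isolated did. The probe was kept only through arrays on which it was high, is not among the 76 genes detected on all 5 arrays, and its vehicle values in the fit are at background. With the vehicle level taken as the lowest detected level of each array, the calcitriol level was at least 1.18-fold higher, a bound that was not tested. It was the fitted log2 change of 1.23, with vehicle values at background, that passed (limma's adjusted p = 0.0158). Without calcitriol array 1 or 2 or vehicle array 1 it did not pass (adjusted p = 0.183, 0.227 and 0.0584). Against the array labelled freshly isolated the bound was at least 1.16-fold lower with vehicle, and was not tested either. The fitted change there was called in limma. That call was lost without any 1 of the 4 day 3 arrays, at an adjusted p of 0.0714 to 0.145, and also with a variance trend (0.0785) and after scaling to the array median (0.0874).

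In the list of thioredoxins, peroxiredoxins, superoxide dismutases and catalase, 0 of 17 detected genes passed. A higher value with calcitriol was found for 14 and a lower one for 2, with a median of 0.16. Of the 9737 probes 4938 had a higher value and 4797 a lower one, and a shift of the list was not tested. Txn1 had the same normalized value on all 5 arrays. Quantile normalization gives this to any probe of equal rank on each array, so equal expression cannot be read from it. Sod2, the mitochondrial superoxide dismutase, had log2 values of 12.23 and 11.98 with calcitriol, 11.43 and 11.30 with vehicle and 11.63 on the array labelled freshly isolated. The change was 0.74 ± 0.15 and missed the threshold (adjusted p = 0.0937 in limma), though it passed in 4 other settings: with a variance trend, without background correction, in the authors' value table, and among probes detected on all 5 arrays. Txnrd3 (0.50 ± 0.13) and the extracellular dismutase Sod3 (0.40 ± 0.13) had the next smallest p-values, at adjusted p = 0.148 and 0.228.

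Among the genes of glutathione supply and peroxidases 0 of 15 passed, with 8 values higher, 7 lower and a median of 0.03. Gpx3, the plasma glutathione peroxidase, had the smallest p, with a log2 change of -0.51 ± 0.14 (adjusted p = 0.175 in limma). Chac1, which degrades glutathione, had -0.47 ± 0.14, and the mitochondrial glutaredoxin Glrx2 had 0.37 ± 0.15. Gpx3 passed with a variance trend alone among the other settings (adjusted p = 0.0289).

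Of 12 heme and iron genes 0 passed, with 6 values higher, 6 lower and a median of -0.01. The ferroportin gene Slc40a1, which exports iron, had a log2 change of 0.53 ± 0.17 (adjusted p = 0.215 in limma). Blvra, the biliverdin reductase that acts after heme oxygenase, had 0.42 ± 0.14 (adjusted p = 0.244), and Hpx, which binds free heme, had -0.42 ± 0.15. Slc40a1 and Blvra thus had values above 0 where Hmox1 had a value below 0. With a variance trend both passed (adjusted p = 0.0212 and 0.0259).

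Of 9 partners, repressors and degradation factors of NRF2 0 passed, with 2 values higher, 7 lower and a median of -0.08. Dpp3, which competes with NRF2 for KEAP1, had -0.34 ± 0.14, Btrc, an adaptor of another ubiquitin ligase for NRF2, had -0.34 ± 0.14, and Mafk, a small MAF partner, had -0.14 ± 0.13. Of 6 genes of NADPH supply 0 passed, with 3 values higher, 3 lower and a median of 0.04. Idh1 (-0.38 ± 0.15), Taldo1 (0.30 ± 0.13) and Idh2 (0.26 ± 0.19) had the smallest p-values in that list. Of 26 phase II and conjugation genes Aldh3a1 alone passed. A higher value was found for 19 and a lower one for 7, with a median of 0.08. Among the 9737 probes 4938 were higher and 4797 lower. Gsta5, detected on all 5 arrays and named after its values were seen, had 0.77 ± 0.17 (adjusted p = 0.111 in limma). It passed in the same other settings as Sod2.

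**Figure D4:**
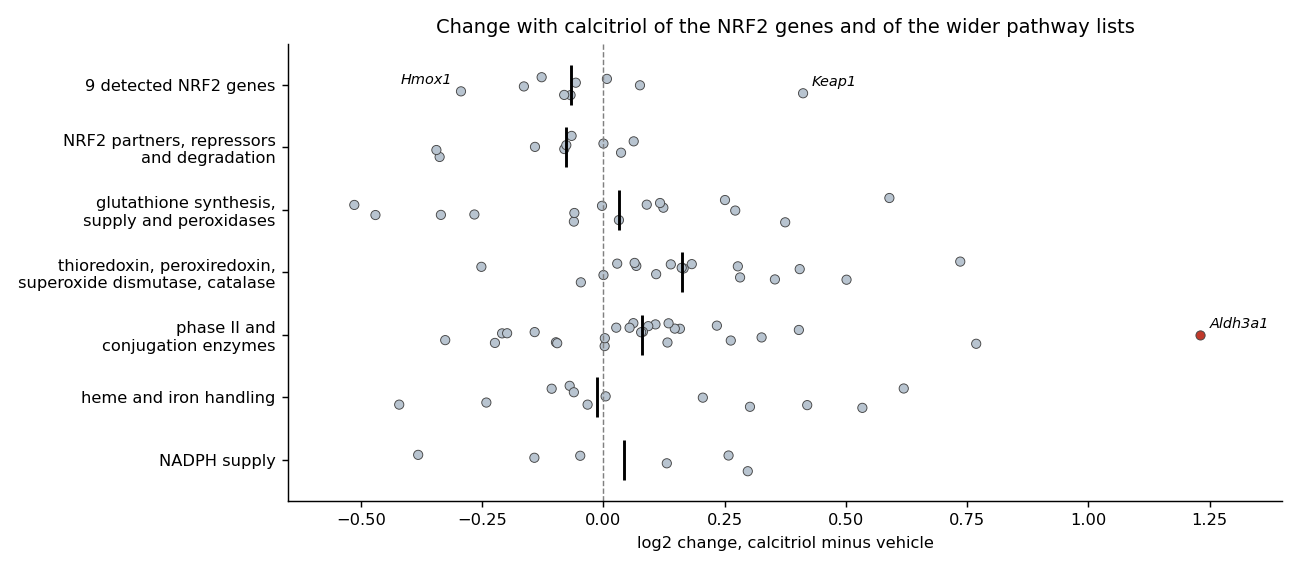
Log2 change with calcitriol (x axis) of the 9 detected NRF2 genes and of the detected genes in 6 wider pathway lists (rows), where each point is a gene, black bars are medians and red marks an adjusted p under 0.05. Aldh3a1 at 1.23 is the red point; its vehicle arrays were not above background, so this fitted value is no bound.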

How the data were processed

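Biotin-labelled cRNA was hybridised to 5 arrays on 1 chip, per the labels and file headers. The submitters' processing notes name GenomeStudio 2011.1. Per the file headers, the deposited table gives the mean bead intensity per probe and array, its standard error over beads, the count of beads and a detection p-value against negative controls. The authors' value table holds intensity values on a linear scale that match a quantile normalization (sorted columns within 0.664% of their mean), a step no label names.

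Background correction (normal-exponential with an offset of 16), quantile normalization and log2 were computed with limma's neqc (limma 3.58.1, R 4.3.3), which understates changes of dim probes. Probes with a detection p under 0.01 on at least 1 array were kept, 9737 of 22523. Gene names are those of the platform annotation, and a gene with several kept probes was counted by the one of highest mean. The model held a mean for each group over all 5 arrays (lmFit, eBayes), leaving 2 residual degrees of freedom, to which the prior added 3.65. The two-sided adjusted p-values are Benjamini-Hochberg over all kept probes. The array labelled freshly isolated is assumed to vary like the others. The fit was tested on simulated data. The median number of beads per probe was 40 or 41.

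Named genes were all members, and in each wider list the genes past the threshold or else the 3 of smallest p with calcitriol. The members and lists were chosen with earlier results of these data known. Same-numbered vehicle and calcitriol arrays deviated from their group means with a correlation of -0.106 across probes, so the numbers were not taken as pairs. Per the file headers the groups lay at different positions of the chip, so position and group cannot be told apart.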

Additional observations from a re-analysis of the deposited data

How the results depend on the processing

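In all 15 other settings for calcitriol against vehicle, and 12 for each of the other comparisons, 0 members passed. Keap1 kept its direction with calcitriol in all 15, between 0.31 and 0.52 (lowest adjusted p = 0.0746, with a variance trend), and Hmox1 did between -0.42 and -0.16. Of 390 member changes recomputed, 21 turned sign, none called. With scaling to the array median these were, with calcitriol, Nqo1 (0.045), Gclm (0.0032) and the second Gstp1 probe (0.072), for vehicle against the array labelled freshly isolated Hmox1 (0.066), Gclm (-0.0038) and Nfe2l2 (-0.068), and for calcitriol against it Gclm (-0.00061). Without 1 array in turn, the changes with calcitriol that turned ran from -0.18 to 0.045 for Nqo1, -0.14 to 0.027 for Gclm, -0.17 to 0.012 for Txnrd1, -0.096 to 0.25 for Nfe2l2, and -0.16 to 0.17 and -0.069 to 0.059 for the 2 Gstp1 probes. For vehicle against the array labelled freshly isolated they ran from -0.0078 to 0.22 for Nqo1, -0.12 to 0.065 for Gclc, -0.15 to 0.19 for Nfe2l2 and -0.033 to 0.18 for Keap1, and for calcitriol against it from -0.069 to 0.10 for Gclm and -0.089 to 0.039 for the second Gstp1 probe. The cause was not tested.

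Probes called with calcitriol numbered 178, but 489 without background correction, 488 in the authors' value table, 325 among probes detected on all 5 arrays and 684 with a variance trend. Without 1 array they ran from 0 (either calcitriol array) to 83. Wider pathway genes called were 3, 3, 2 and 7 in those 4 settings, with Sod2 and Gsta5, named after their values were seen, in each, and 0 to 1 without 1 array. For vehicle against the array labelled freshly isolated, 149 probes became 403, 401, 282 and 506, and 0 to 60 without 1 array. The wider genes there numbered 4 without background correction, 4 in the value table, 5 with a variance trend, 0 after scaling to the median of each array, and 0 when any 1 array was left out. For calcitriol against that array, probes called were 35, 30 and 51 without background correction, in the value table and with a variance trend, with 1 wider gene each, Gpx3. With the replicate number as a block 129 probes, 0 members and 1 wider gene passed. A crossed pairing, chosen after seeing the data, gave 204 probes, 0 members and 1 wider gene.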
